A study of Mus musculus with 9 samples.

Results

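The genes that hold Ras in check and the genes that switch it on were followed across 3 groups of cultured mouse cells. They were Nf1, Spred1, Spred2, Spred3, Rasa1, Rasa3, Rasal1, Dab2ip, Sos1 and Sos2. Their probe sets were taken by gene symbol in the array's annotation and not by their values. The genes themselves were chosen with earlier results of these data known. The 10 genes are 10 of 18193 measured genes and have 30 of 45101 probe sets. A probe set is a group of short probes against 1 stretch of a transcript. All 30 are accounted for, and no filter on dim values was applied to them. The signal is the authors' linear probe set value, and differences are between group means of log2(signal + 1). The brightest probe set by mean over all arrays stood for a gene.

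RNA of 9 samples, 3 in each group, was hybridised to Affymetrix mouse arrays. Glioma stem cells (GSC) were cultured from optic gliomas of the optic nerve of 3-month-old C57BL/6 mice of the genotype Nf1+/-GFAP CKO, which reads as 1 defective germline Nf1 allele and a conditional knockout driven by the astroglial GFAP promoter. Nf1-null neural stem cells (NSC), from the third ventricle of C57BL/6 Nf1flox/flox pups at postnatal day 1, had received a Cre virus. Wild-type NSC came from pups of that same genotype and age, with a control LacZ virus, so their floxed Nf1 alleles were left in place. All cells grew in low-attachment dishes with N2, B27, FGF at 20 ng/ml and EGF at 20 ng/ml. Between GSC and NSC the tumour, the tissue, age, virus and genotype all differed at once, and these cannot be told apart. Separate cultures are stated for the NSC and not for the GSC, so p-values measure only the spread between these samples.

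Ras is a small GTPase that relays growth factor signals to the Raf, MEK and ERK kinases while it holds GTP. Sos proteins load it with GTP, and GTPase-activating proteins (RasGAPs), among them neurofibromin, the product of Nf1, make it hydrolyse that GTP. Spred proteins bind neurofibromin and bring it to the membrane where Ras sits, and loss of NF1 in people predisposes to optic pathway glioma.

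The arrays were scaled alike, with median signals of 266.6 to 275.7 in GSC, 264.0 to 271.6 in Nf1-null NSC, against 278.7 to 286.7 in wild-type NSC. By group mean, 6 of 7 neural stem cell markers lay above the array median in GSC and 7 of 7 in both NSC groups. The exception, Gfap, whose promoter drives the knockout in GSC mice, had signals of 167.7, 24.4 and 52.3 in GSC, 3053.0, 200.6 and 158.5 in Nf1-null NSC, against 3291.6, 1004.2 and 923.1 in wild-type NSC. The summed signal of 6 astrocyte markers separated the groups, at 73726 to 75694 in GSC, 94474 to 146321 in Nf1-null NSC, against 169145 to 219137 in wild-type NSC. Its members did not move as one: Aqp4 and Aldh1l1 had means of 147.3 and 394.2 in GSC, 5085 and 32869 in Nf1-null NSC, against 19838 and 36237 in wild-type NSC, whereas S100b was 17467.7 or more in GSC, against at most 10179.4 in Nf1-null NSC and 11308.3 in wild-type NSC. The sum of 6 oligodendrocyte precursor markers also separated the groups, at 120164 to 135224 in GSC, 85632 to 104626 in Nf1-null NSC, against 105954 to 119109 in wild-type NSC. Its members were split as well. Pdgfra and Sox10 had means of 8174 and 1667 in GSC, 2145 and 743.1 in Nf1-null NSC, against 11811 and 2448 in wild-type NSC. The other members had higher means in GSC than in wild-type NSC, with overlapping arrays for Olig1. Sums of oligodendrocyte and Schwann cell markers overlapped between GSC and either NSC group. Within the oligodendrocyte list, the myelin gene Mbp had signals of 2601.3, 29057.3 and 65239.2 in GSC, 376.5, 189.2 and 297.4 in Nf1-null NSC, against 2008.8, 495.4 and 6599.4 in wild-type NSC, so it was uneven within GSC and lowest in Nf1-null NSC. Sums of 5 neuronal markers were 2334 to 3403 in GSC, 1660 to 1989 in Nf1-null NSC, against 2507 to 3819 in wild-type NSC. Sums of 6 microglial, 5 endothelial and 5 fibroblast markers were at most 709.7, 564.2 and 515.0 in GSC, at most 745.4, 761.2 and 385.8 in Nf1-null NSC, and at most 913.4, 685.4 and 325.0 in wild-type NSC, and no marker was at 0. The 3' to 5' ratio of Actb, a sign of RNA quality, was 1.73 to 1.85 in GSC, 1.49 to 1.67 in Nf1-null NSC, against 1.87 to 1.88 in wild-type NSC. That of Gapdh overlapped between all groups, at 0.948 to 1.140 in GSC, 0.927 to 0.962 in Nf1-null NSC, against 0.954 to 1.135 in wild-type NSC. The astrocyte and oligodendrocyte precursor sums and the Actb ratio therefore moved with every comparison given below, and their part in it was not tested. Fewer cells of a type and less RNA per cell cannot be told apart in bulk samples. Across the brighter 9097 genes, GSC array 1 correlated at 0.950 and 0.944 with arrays 2 and 3 of its group, which correlated at 0.989 with each other.

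Nf1 was measured first, since it is the targeted gene. It lies at chr11:79339590-79581609 (mouse build GRCm38.p6, RefSeq annotation, as for the other genes below). Its brightest probe set, 1438067_at, had signals of 622.6, 600.1 and 548.9 in GSC, 430.3, 645.8 and 577.0 in Nf1-null NSC, against 1139.5, 919.5 and 999.9 in wild-type NSC. The 3 wild-type arrays were the 3 highest, and GSC and Nf1-null NSC overlapped. Nf1 fell by 0.78 (log2, SE 0.19, limma adjusted p = 0.0441) in GSC against wild-type NSC. That call was lost in 14 of 25 alternative settings. These included quantile normalization (adjusted p = 0.0598), arrays shifted to the same median (adjusted p = 0.0567), with adjusted p up to 0.417 over all settings, and the fits without any 1 of the wild-type NSC or GSC arrays, where the difference lay between -0.85 and -0.70. In Nf1-null NSC the difference against wild-type NSC was -0.90 (SE 0.19, adjusted p = 0.123), and it did not pass. In the 3 same-numbered pairs of Nf1-null and wild-type NSC arrays it was -1.40, -0.51 and -0.79. Between GSC and Nf1-null NSC the difference was 0.12 (95% interval -0.32 to 0.56, adjusted p = 0.810). The exact permutation p for single comparisons of 3 against 3 arrays was 0.1 against wild-type NSC for both other groups, the smallest it can give, and 0.7 between GSC and Nf1-null NSC.

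The other Nf1 probe sets were dimmer and gave another order of the groups. In Nf1-null NSC over wild-type NSC, though, all 3 Nf1 probe sets were negative (log2 differences from -1.40 to -0.60). The arrays did not overlap on 2 of them, and 0 were called. Probe set 1441523_at, brighter than 33.5% of probe sets on average, had signals of 146.6, 206.2 and 185.1 in GSC, 38.4, 25.2 and 99.7 in Nf1-null NSC, against 175.4, 101.1 and 105.3 in wild-type NSC. It was low in Nf1-null NSC alone, below every array of both other groups, and GSC overlapped wild-type NSC. Its log2 difference was 1.92 between GSC and Nf1-null NSC (SE 0.48, adjusted p = 0.138 over all probe sets) and 0.52 between GSC and wild-type NSC (SE 0.48, adjusted p = 0.578). Probe set 1452525_a_at was lower still, with 5.5, 39.4 and 16.6 in GSC, 42.0, 9.6 and 103.9 in Nf1-null NSC, against 20.2, 80.2 and 95.4 in wild-type NSC, and all groups overlapped. Where the probes lie relative to the deleted part of Nf1 was not analysed here, so these signals are not a measure of whole Nf1 transcripts.

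**Figure D1:**
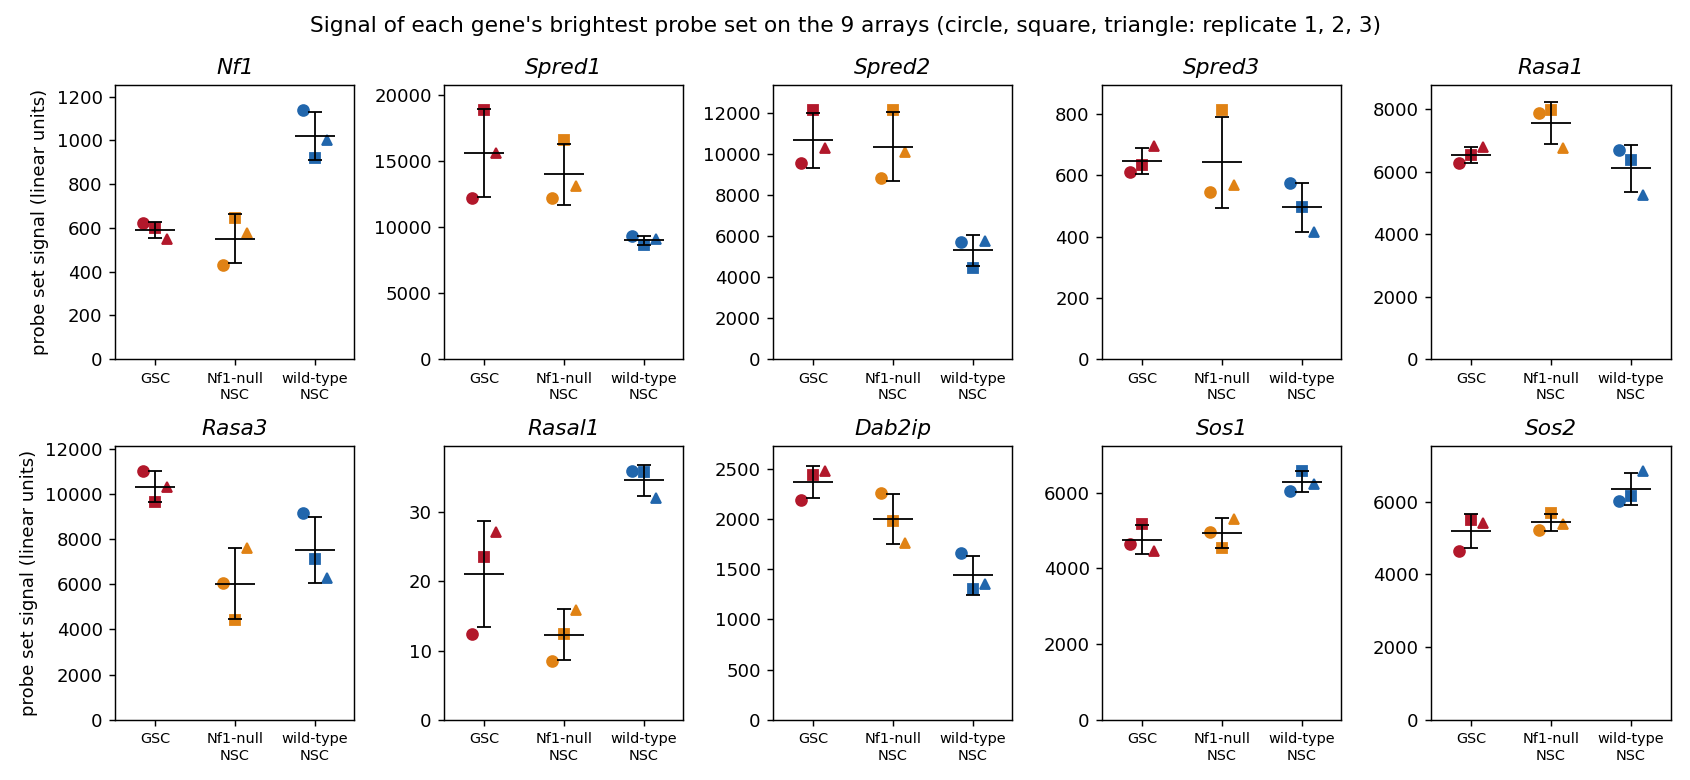
Signals (linear units, each axis from 0) of the brightest probe set of each of the 10 genes on the 9 arrays, with GSC, Nf1-null NSC and wild-type NSC side by side. Points are arrays, with a shape for each replicate number, and bars are the mean ± SD of 3 arrays. Wild-type NSC arrays were the 3 highest for Nf1, Rasal1, Sos1 and Sos2, and the 3 lowest for Spred1, Spred2 and Dab2ip.

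Spred2 was the member with the smallest adjusted p against wild-type NSC in GSC. Spred2, at chr11:19924442-20024026, encodes a membrane protein that binds neurofibromin and inhibits the Ras to ERK pathway. Probe set 1434403_at had signals of 9562.8, 12149.2 and 10287.8 in GSC, 8808.1, 12141.1 and 10100.6 in Nf1-null NSC, against 5683.2, 4431.6 and 5776.2 in wild-type NSC. All 6 arrays of cells with altered Nf1 lay above all 3 wild-type arrays, and GSC and Nf1-null NSC overlapped. Relative to wild-type NSC, Spred2 rose 2.02-fold in GSC, a log2 difference of 1.01 (SE 0.19, adjusted p = 0.0251). This was lost in 6 of 25 alternative settings, among them without any 1 wild-type NSC array, GSC array 2 or GSC array 3, where the difference lay between 0.89 and 1.08. In Nf1-null NSC over wild-type NSC it was 0.96 (SE 0.19, adjusted p = 0.113), with 0.63, 1.45 and 0.81 in the same-numbered pairs, and it did not pass. GSC differed from Nf1-null NSC by 0.05 (95% interval -0.40 to 0.50).

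Among the 5 Spred2 probe sets, a dimmer one showed a larger difference. Probe set 1436892_at had signals of 648.7, 1067.4 and 791.2 in GSC, 429.8, 729.5 and 398.6 in Nf1-null NSC, against 161.5, 129.9 and 194.2 in wild-type NSC. Its wild-type arrays lay below every other array. In the fit of all 45037 probe sets it rose by 2.35 in GSC over wild-type NSC (SE 0.31, adjusted p = 0.0158), beside 1434403_at (adjusted p = 0.0392). The other 3 Spred2 probe sets ranged from -0.27 to 1.27 and did not pass. The negative one, 1423001_at, was dim in all groups, with means of 22.2 in GSC, 41.6 in Nf1-null NSC, against 26.8 in wild-type NSC.

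Spred1, at chr2:117121071-117182279, encodes the family member mutated in Legius syndrome, which resembles a mild form of neurofibromatosis. Probe set 1423160_at had signals of 12210.8, 18869.7 and 15620.8 in GSC, 12204.8, 16585.8 and 13133.0 in Nf1-null NSC, against 9313.6, 8625.0 and 9075.4 in wild-type NSC. The wild-type arrays were close together and below all 6 others, while array 2 was the highest in GSC and in Nf1-null NSC alike. The log2 difference from wild-type NSC was 0.77 in GSC (SE 0.20, adjusted p = 0.0571) and 0.62 in Nf1-null NSC (SE 0.20, adjusted p = 0.201), and neither passed. The GSC difference passed in 9 of 25 alternative settings, among them without GSC array 1, where it was 0.93. All 8 Spred1 probe sets were positive in both comparisons with wild-type NSC, from 0.32 to 1.71 in GSC and from 0.06 to 0.62 in Nf1-null NSC. The probe set 1423162_s_at stood out, with 2004.1, 2842.3 and 2599.9 in GSC, 1259.6, 1921.1 and 1108.9 in Nf1-null NSC, against 1546.7, 1298.4 and 1191.3 in wild-type NSC. On it GSC lay above both NSC groups, which overlapped each other, whereas on the brightest probe set GSC and Nf1-null NSC overlapped. Its difference between GSC and Nf1-null NSC was 0.82 (SE 0.26, adjusted p = 0.216 over all probe sets).

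Spred3, at chr7:29157783-29170070, encodes the third family member, which lacks a working Kit-binding domain. Its only probe set had signals of 612.4, 633.2 and 696.4 in GSC, 545.7, 814.3 and 569.6 in Nf1-null NSC, against 575.1, 497.5 and 414.1 in wild-type NSC. GSC lay above wild-type NSC on every array, and Nf1-null NSC overlapped both. The log2 difference from wild-type NSC was 0.40 in GSC (adjusted p = 0.271) and 0.36 in Nf1-null NSC (adjusted p = 0.419), with 1 of 3 same-numbered pairs negative.

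The promoters of Spred1 and Spred2 are shown as those of Spred genes whose brightest probe sets were higher in all 6 arrays of cells with altered Nf1. The same held for Dab2ip, whose promoters are not shown. Each line gives the 250 bases before the RefSeq start site of build GRCm38.p6, read 5′ to 3′ along the gene. Capitals mark matches to CGGAAG or its reverse complement CTTCCG, a form of the site for ETS transcription factors that is longer than its GGAA core. They also mark matches to TGACGT or its reverse complement ACGTCA, the core of a cAMP response element.
Spred1 promoter, chr2:117120821-117121070, + strand: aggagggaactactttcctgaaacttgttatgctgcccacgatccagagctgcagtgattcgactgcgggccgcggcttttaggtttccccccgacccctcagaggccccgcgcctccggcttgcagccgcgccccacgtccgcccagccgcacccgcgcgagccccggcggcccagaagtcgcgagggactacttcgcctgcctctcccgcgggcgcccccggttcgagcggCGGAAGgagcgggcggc
Spred2 promoter, chr11:19924192-19924441, + strand: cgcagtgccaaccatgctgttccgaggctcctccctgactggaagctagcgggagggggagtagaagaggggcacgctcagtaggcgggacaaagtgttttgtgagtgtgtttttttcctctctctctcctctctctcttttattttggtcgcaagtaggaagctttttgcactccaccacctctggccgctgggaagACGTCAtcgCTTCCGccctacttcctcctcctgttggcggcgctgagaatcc
The ETS match began 17 bases before the start site in Spred1. In Spred2 the ETS match lay 43 bases and the cAMP element match 52 bases before it, both on the opposite strand, and the matches did not overlap. Of 32851 promoter windows of that length, 13.6% held the ETS letters and 6.47% the cAMP element letters. The RefSeq table matched 9 of the 10 genes, with 12 windows. The windows of Nf1, Rasa1 and Rasa3 also held the ETS letters, 217, 54 and 199 bases before the start site. Those of Spred3, Sos1 and Sos2 and the 4 of Dab2ip held neither motif. The letters thus did not follow the direction of the signals. On the brightest probe sets Dab2ip was higher than in wild-type NSC without them, and Nf1 was lower with the ETS letters. These matches are letters in a window, and no binding was measured.

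Dab2ip passed among the RasGAP genes. It lies at chr2:35558446-35730994 and encodes a RasGAP that also binds the adaptor Dab2 and acts as a tumour suppressor in several epithelia. Probe set 1433558_at had signals of 2188.2, 2441.4 and 2484.3 in GSC, 2265.9, 1979.6 and 1764.6 in Nf1-null NSC, against 1665.1, 1308.3 and 1351.5 in wild-type NSC. The wild-type arrays were the 3 lowest, though the highest of them was close to the lowest Nf1-null array. Relative to wild-type NSC, Dab2ip rose 1.65-fold in GSC, a log2 difference of 0.72 (SE 0.17, adjusted p = 0.0385). This was lost in 11 of 25 alternative settings, among them 7 of the 9 that left out an array. In Nf1-null NSC over wild-type NSC the difference was 0.48 (SE 0.17, adjusted p = 0.223), with 0.44, 0.60 and 0.38 in the same-numbered pairs. The second probe set, 1441170_a_at, had signals of 1639.0, 2092.8 and 1820.8 in GSC, 1527.5, 1644.5 and 1309.4 in Nf1-null NSC, against 912.3, 935.5 and 685.3 in wild-type NSC. It had the same order of groups with a wider gap, and rose by 1.14 in GSC over wild-type NSC (SE 0.20, adjusted p = 0.0294 over all probe sets). In that fit of all probe sets, 1433558_at did not pass (adjusted p = 0.0644).

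Rasa3 differed from the others in its order of groups. It lies at chr8:13567218-13677587 and encodes a RasGAP of the GAP1 family, known in blood cells for its hold on Rap1 as well as Ras. Its signals were 11024.2, 9638.3 and 10277.0 in GSC, 6069.1, 4426.1 and 7587.1 in Nf1-null NSC, against 9149.3, 7118.0 and 6286.4 in wild-type NSC. GSC were the 3 highest arrays and the NSC groups overlapped. It was the only member whose GSC and Nf1-null NSC arrays did not overlap on the brightest probe set, with a log2 difference of 0.81 (SE 0.24, 95% interval 0.26 to 1.36, adjusted p = 0.151), which did not pass. It passed in 1 of 25 alternative settings, the replicate block with a mean-variance trend (adjusted p = 0.0366, with up to 0.347 in the others). Against wild-type NSC the difference was 0.47 in GSC (adjusted p = 0.250) and -0.34 in Nf1-null NSC (adjusted p = 0.515).

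Rasa1, at chr13:85214699-85289486, encodes p120 RasGAP, which binds activated receptors through its SH2 domains. Probe set 1426476_at had signals of 6278.7, 6529.1 and 6776.3 in GSC, 7891.4, 7979.7 and 6768.8 in Nf1-null NSC, against 6704.9, 6366.6 and 5249.4 in wild-type NSC. GSC overlapped both NSC groups, and Nf1-null NSC lay above wild-type NSC by a small margin. The difference from wild-type NSC was 0.10 in GSC (95% interval -0.25 to 0.46, adjusted p = 0.721) and 0.31 in Nf1-null NSC (95% interval -0.05 to 0.67, adjusted p = 0.361). The margin was as small on 1426477_at, where the lowest Nf1-null NSC array had 4652.2, against 4623.9 for the highest wild-type NSC array. It was wider on the dimmest Rasa1 probe set. Probe set 1426478_at had 1554.8, 1552.7 and 1527.5 in GSC, 1709.5, 1528.5 and 1256.4 in Nf1-null NSC, against 966.8, 1045.5 and 1039.4 in wild-type NSC. The wild-type arrays were the 3 lowest there, with differences of 0.60 in GSC (adjusted p = 0.0861 over all probe sets) and 0.55 in Nf1-null NSC (adjusted p = 0.249).

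Rasal1, at chr5:120648040-120679597, encodes a RasGAP whose membrane binding depends on calcium, and it was close to the floor of the arrays. Its signals were 12.4, 23.5 and 27.1 in GSC, 8.5, 12.4 and 15.9 in Nf1-null NSC, against 36.0, 35.8 and 32.0 in wild-type NSC, and only 8.36% of probe sets were dimmer on average. The wild-type arrays were the 3 highest, but all 9 lay below the 25th percentile of their array, which was 69.1 at its lowest. The log2 difference from wild-type NSC was -0.76 in GSC (SE 0.32, adjusted p = 0.181) and -1.46 in Nf1-null NSC (SE 0.32, adjusted p = 0.131), values that depend on the pseudocount of 1.

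On their brightest probe sets the exchange factor genes lay on the other side of 0 from the Spred genes against wild-type NSC, without passing the test. Sos1, at chr17:80393752-80480453, encodes the exchange factor that Grb2 brings to activated receptors. Probe set 1434389_at had signals of 4636.6, 5179.7 and 4454.2 in GSC, 4963.4, 4527.7 and 5309.9 in Nf1-null NSC, against 6051.6, 6583.4 and 6237.3 in wild-type NSC. The 3 wild-type arrays were the highest, and GSC and Nf1-null NSC overlapped. The difference from wild-type NSC was -0.41 in GSC (SE 0.14, adjusted p = 0.113) and -0.35 in Nf1-null NSC (SE 0.14, adjusted p = 0.263), and neither passed. In GSC it passed in 4 of 25 alternative settings, and with the mean of all 5 Sos1 probe sets it turned to 0.12.

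The other 4 Sos1 probe sets were dim, with mean signals over the arrays between 63.2 and 400.0. Of all 5 Sos1 probe sets, 3 were positive in GSC over wild-type NSC (range -0.41 to 0.56). In Nf1-null NSC over wild-type NSC 2 were positive (range -0.78 to 0.50). Probe set 1421885_at had signals of 235.9, 251.6 and 256.1 in GSC, 127.4, 139.4 and 51.4 in Nf1-null NSC, against 191.8, 153.4 and 159.2 in wild-type NSC. On it GSC were highest and Nf1-null NSC lowest, with no overlap between any groups. Its difference between GSC and Nf1-null NSC was 1.34 (SE 0.36, adjusted p = 0.162 over all probe sets).

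Sos2, at chr12:69583761-69681852, encodes the second Sos exchange factor. Its probe set had signals of 4647.6, 5497.4 and 5399.5 in GSC, 5219.5, 5676.8 and 5383.5 in Nf1-null NSC, against 6030.2, 6148.4 and 6853.3 in wild-type NSC. As for Sos1, the 3 wild-type arrays were the highest and the other groups overlapped. The difference from wild-type NSC was -0.29 in GSC (SE 0.14, adjusted p = 0.230) and -0.22 in Nf1-null NSC (SE 0.14, adjusted p = 0.462). Between GSC and Nf1-null NSC it was -0.07 (95% interval -0.39 to 0.25), and that of Sos1 was -0.05 (95% interval -0.38 to 0.27).

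The promoters of the Sos genes are shown beside those of Spred1 and Spred2, since the signals of their brightest probe sets lay on the opposite side. They are given as before, and hold no capitals because neither motif was found in them.
Sos1 promoter, chr17:80480454-80480703, - strand: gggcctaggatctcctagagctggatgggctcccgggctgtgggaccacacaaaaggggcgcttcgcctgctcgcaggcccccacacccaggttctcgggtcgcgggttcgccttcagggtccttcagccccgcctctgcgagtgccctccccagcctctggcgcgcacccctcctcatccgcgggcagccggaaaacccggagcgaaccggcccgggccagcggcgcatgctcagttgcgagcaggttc
Sos2 promoter, chr12:69681853-69682102, - strand: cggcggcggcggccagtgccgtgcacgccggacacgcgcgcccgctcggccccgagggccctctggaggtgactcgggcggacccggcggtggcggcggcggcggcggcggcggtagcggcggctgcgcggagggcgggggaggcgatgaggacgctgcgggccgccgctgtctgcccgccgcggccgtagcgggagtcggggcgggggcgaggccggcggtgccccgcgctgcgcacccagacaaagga
No match says only that these letters are not in these windows, and Dab2ip, on the side of the Spred genes, had none either. The shorter GGAA core of ETS sites was not searched for, and the Sos1 window holds it within ccggaaaa.

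**Figure D2:**
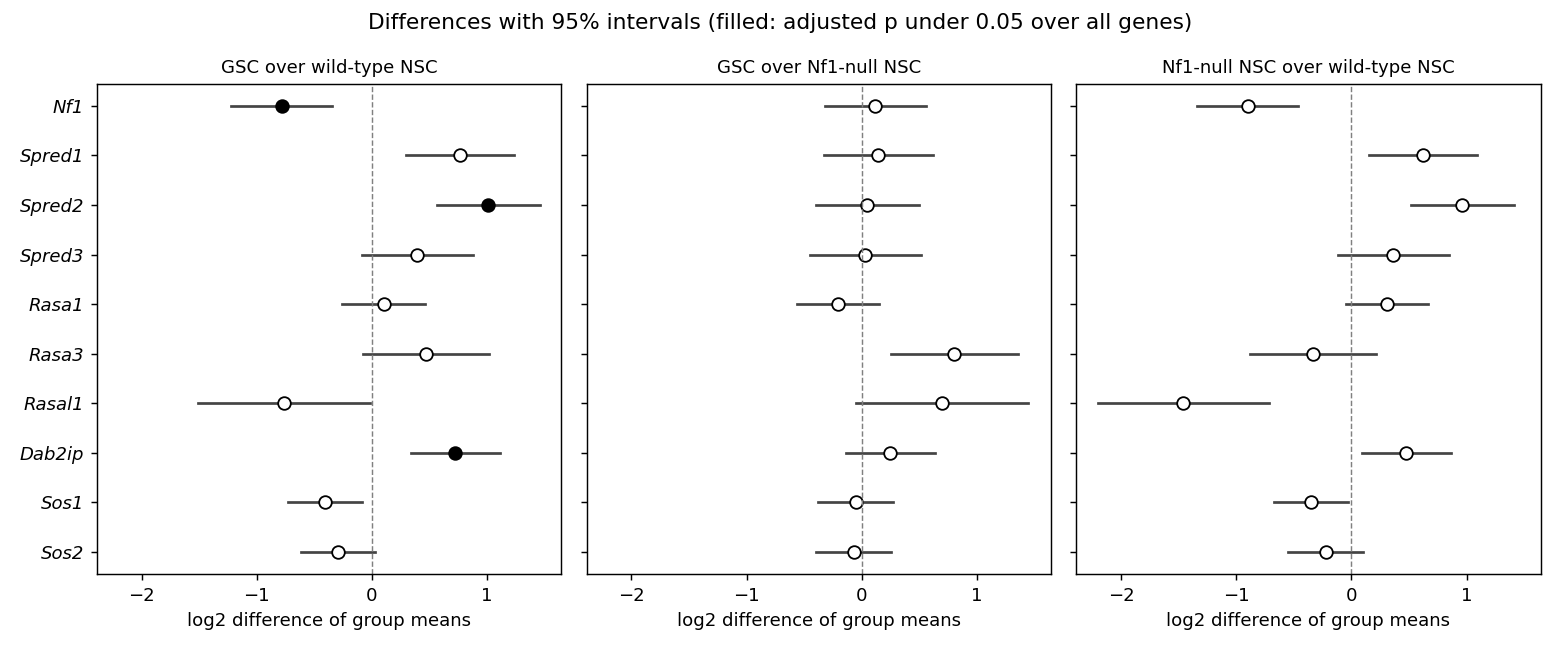
Log2 differences of group means (x axis) with 95% intervals for the 10 genes, in 3 panels for GSC over wild-type NSC, GSC over Nf1-null NSC and Nf1-null NSC over wild-type NSC. Filled points passed an adjusted p of 0.05 over all genes: Nf1 (-0.78), Spred2 (1.01) and Dab2ip (0.72), all in the first panel.

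Read over all 10 genes, GSC over wild-type NSC had 3 calls at an adjusted p under 0.05, where 9.06% of all genes were called. Of these, 2 rose, where 3.46% of all genes were called higher, and 1 fell, where 5.6% of all genes were called lower. With quantile normalization 2 rose and 0 fell, and with arrays shifted to the same median 3 rose and 0 fell. At an unadjusted p under 0.05 there were 6 of 10, beside 26.3% of all genes, and the arrays did not overlap for 9 of 10 (5 higher and 4 lower), beside 34.8% of all genes. Rasa1 was the exception. Among the 30 probe sets 3 were called, beside 4.69% of all probe sets, and 23 were positive. The median difference was 0.25 over the 10 genes and -0.09 over all genes.

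In Nf1-null NSC over wild-type NSC 0 of the 10 genes were called by limma, as were 0% of all genes. At an unadjusted p under 0.05 there were 6 of 10, beside 16.8% of all genes, and the arrays did not overlap for 8 of 10 (4 higher and 4 lower), beside 23.8% of all genes. Spred3 and Rasa3 were the exceptions. The same 8 genes had 1 direction in all 3 same-numbered pairs, beside 48.6% of all genes. For these 8 genes that follows from arrays that do not overlap, so it is no separate result. Of the 30 probe sets 0 were called, as were 0% of all probe sets, and 21 were positive. The median difference was 0.04 over the 10 genes and -0.06 over all genes. Both comparisons use the same wild-type arrays, so their values are not independent of each other.

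Between GSC and Nf1-null NSC 0 of the 10 genes were called by limma, beside 1.75% of all genes (0.671% higher and 1.08% lower). Only Rasa3 had an unadjusted p under 0.05, where 16.5% of all genes did, and only Rasa3 had arrays that did not overlap, where 21.9% of all genes did. Of the 30 probe sets 0 were called, beside 0.722% of all probe sets, and 20 were positive. This contrast is itself the test of whether the differences of the 2 groups from wild-type NSC differ, and the median was 0.08 over the 10 genes and -0.04 over all genes. Intervals reached from -0.56 (Rasa1) to 1.44 (Rasal1), so the absence of a call does not show that the groups act alike.

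**Figure D3:**
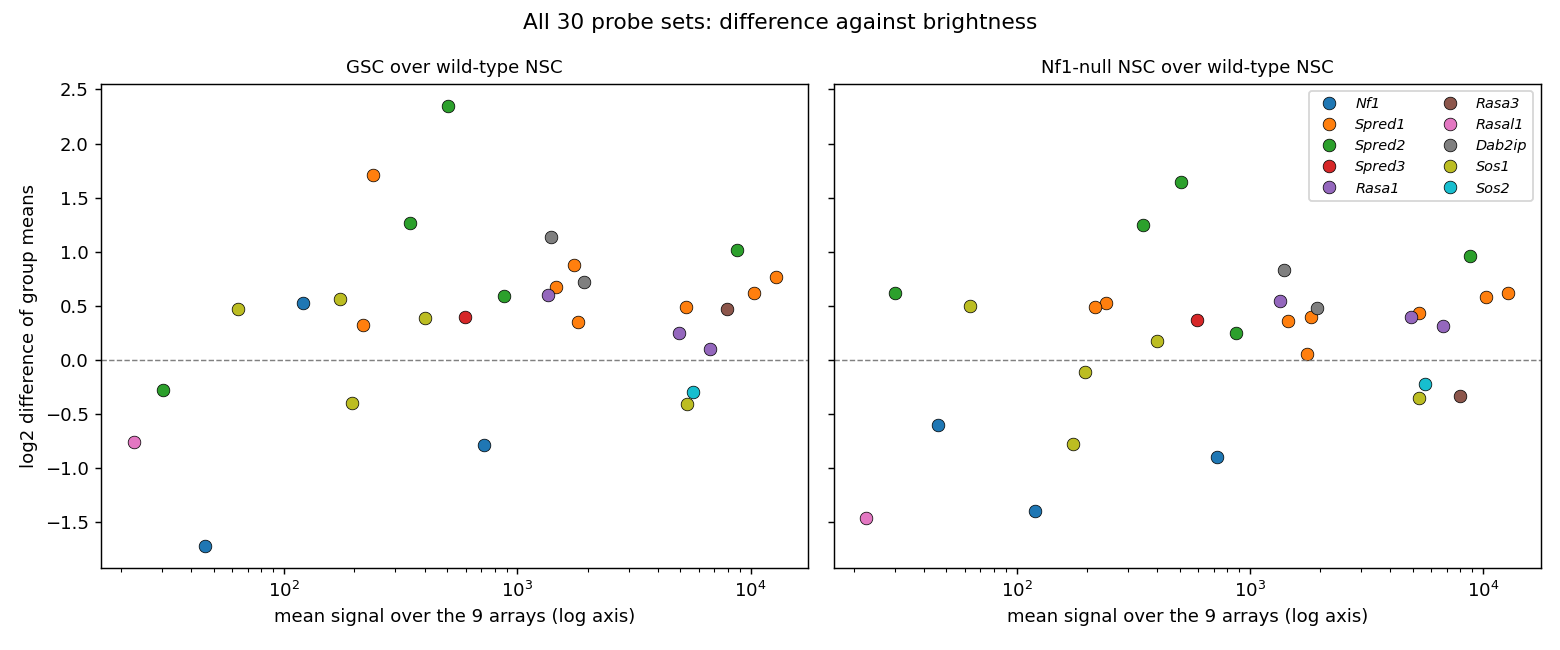
Each of the 30 probe sets by its mean signal over the 9 arrays (x, log axis) and its log2 difference of group means (y), coloured by gene, for GSC over wild-type NSC (left) and Nf1-null NSC over wild-type NSC (right). The Spred1 points lie above 0 in both panels, 4 of 5 Spred2 points lie at 0.59 or more on the left, and the dim Nf1 and Sos1 points scatter on both sides of 0 on the left.

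The other genes of the pathway came from 6 lists, with 43 genes analysed here. In GSC over wild-type NSC 4 rose, 1 fell and 38 did not pass, with 21 positive and a median of -0.01. These 5 of 43 stand beside the 9.06% called over all genes, so the share was near that of all genes. Of 6 Ras genes, 6 exchange factors, 10 adaptors, and 8 kinases and scaffolds of the Raf, MEK and ERK tier, 0 passed. In the list of other RasGAP-type genes 1 of 7 fell and 1 rose. Rasa2, the closest relative of Rasa3, had signals of 3843.4, 4523.6 and 3572.9 in GSC, 5568.2, 5424.3 and 6327.8 in Nf1-null NSC, against 5912.0, 6966.7 and 6265.3 in wild-type NSC. GSC were the 3 lowest arrays here, where they were the 3 highest for Rasa3, and Rasa2 fell by 0.68 (log2) in GSC against wild-type NSC (SE 0.16, adjusted p = 0.0375). Iqgap3, a scaffold with a GAP-related domain that is not an active RasGAP, rose 2.83-fold in GSC over wild-type NSC (adjusted p = 0.0324).

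Of 6 further regulators, the Sprouty genes Spry1, Spry2 and Spry4, relatives of the Spred genes and feedback inhibitors of the pathway, rose in GSC over wild-type NSC, with log2 differences of 2.19, 1.28 and 3.93 (adjusted p = 0.0199, 0.0256 and 0.0135). In Nf1-null NSC over wild-type NSC their differences were 1.72, 0.66 and 2.48 (adjusted p = 0.130, 0.245 and 0.139), and 0 of the 43 genes passed. Between GSC and Nf1-null NSC 1 of 43 passed, beside 1.75% of all genes. This was Spry3, with signals of 227.2, 401.0 and 581.8 in GSC, 72.5, 42.9 and 91.1 in Nf1-null NSC, against 99.0, 122.6 and 232.3 in wild-type NSC. Nf1-null NSC were the 3 lowest arrays, and GSC overlapped wild-type NSC. Spry3 rose 5.65-fold in GSC over Nf1-null NSC (adjusted p = 0.0490), a fold over dim signals close to the 25th percentile of the Nf1-null arrays (69.1 to 75.4). Against wild-type NSC its log2 difference was 1.40 in GSC (adjusted p = 0.104) and -1.09 in Nf1-null NSC (adjusted p = 0.296), the sign opposite to that of Spry1, Spry2 and Spry4 in Nf1-null NSC.

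**Figure D4:**
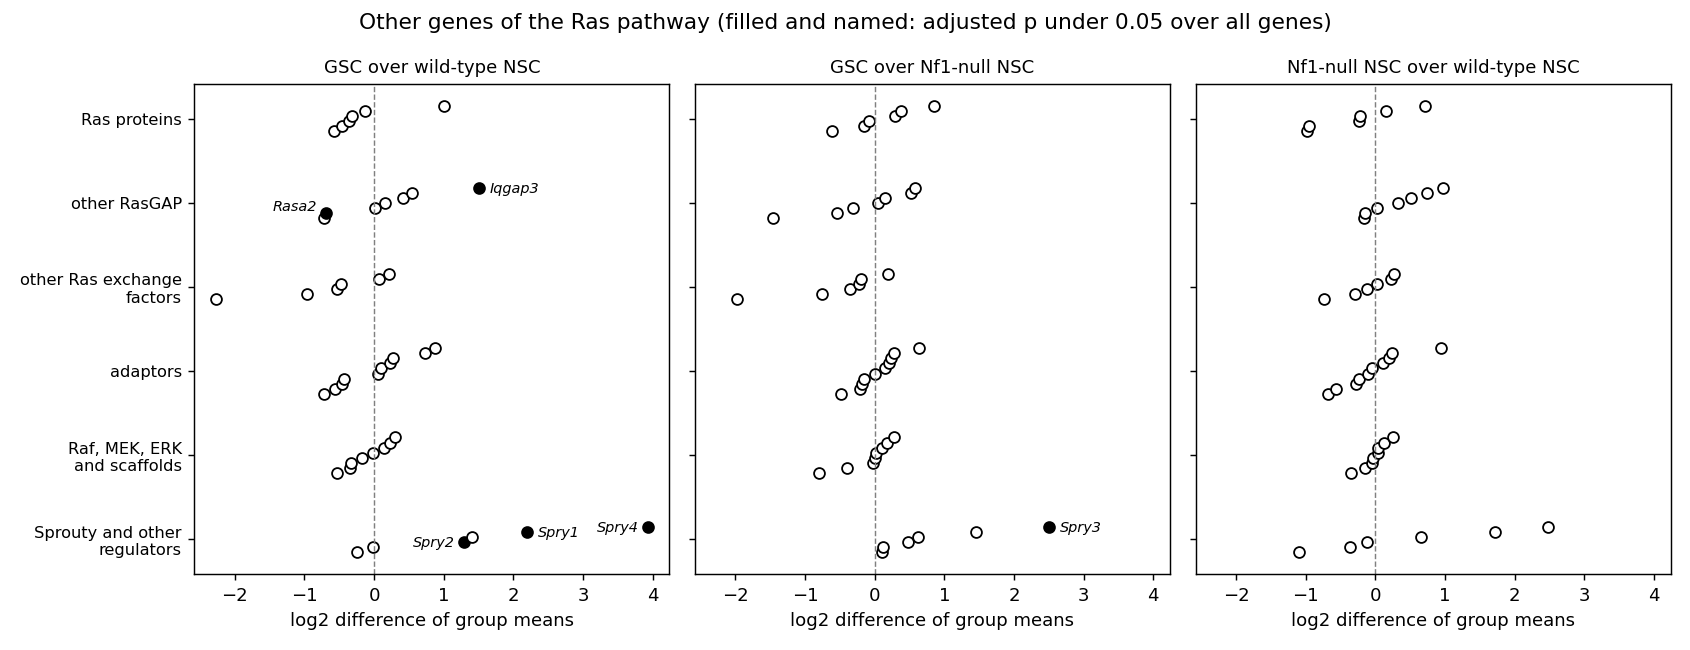
Log2 differences of group means (x axis) for 43 other genes of the Ras pathway, grouped in 6 lists down the page, in 3 panels for GSC over wild-type NSC, GSC over Nf1-null NSC and Nf1-null NSC over wild-type NSC. Filled, named points passed an adjusted p of 0.05 over all genes: Rasa2, Iqgap3, Spry1, Spry2 and Spry4 on the left and Spry3 in the middle.

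Likeness to Nf1 was measured as the root mean square difference between mean-centred log2 signals over the 9 arrays. It was ranked among 8864 of the brighter 9097 genes, without clone and model names. Nf1's own spread around its mean was 0.433. The 5 nearest genes were Papolg (0.191), a poly(A) polymerase gene, Zfp318 (0.204), Mapk8ip3 (0.210), a scaffold gene of the JNK pathway, Foxo3 (0.211), a forkhead factor gene, and Neo1 (0.216), the netrin receptor gene neogenin. Neo1 had signals of 6363.3, 6887.4 and 7154.5 in GSC, 6238.3, 5756.7 and 7396.6 in Nf1-null NSC, against 14992.6, 13035.0 and 13008.5 in wild-type NSC. Its wild-type arrays were the 3 highest, with the other groups overlapping, an order that follows from how the 5 genes were picked. Among the 10 genes, measured without that filter, Sos1 (0.307) and Sos2 (0.338) were nearest to Nf1, Rasal1 lay at 0.433, and Spred2 (0.873), Spred1 (0.750) and Dab2ip (0.720) were farthest. These distances describe 9 arrays in 3 groups, and arrays of a group share their treatment.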

How the data were processed

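The authors deposited intensity values of Affymetrix Mouse Genome 430 2.0 probe sets on a linear scale. The sources used here do not give their software. With the lowest and highest 2% of probe sets left out, the mean was close to 1500 on every array (1499.77 to 1500.57), so a shift in total RNA between groups would not show. Per the labels' protocols, 100 ng of total RNA went into each cRNA.

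Of 45101 probe sets, 64 controls were left out, and 34945 had 1 gene symbol. The brightest probe set stood for each of 18193 genes, and a second fit took all 45037 probe sets. The log2(value + 1) values of the 9 arrays were fitted together, as 3 group means, with limma 3.58.1 (R 4.3.3, lmFit and eBayes without a trend, 6 residual and 1.63 prior degrees of freedom). P-values were two-sided and Benjamini-Hochberg adjusted over all genes or all probe sets, with 0.05 as the threshold. The code was tested on simulated arrays. Only 3 arrays per group limit the precision.

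The 10 genes, the pathway and marker lists and the tests were chosen with earlier results of these data known. All 10 genes are named, with the 5 genes nearest to Nf1 and the other pathway genes that passed. Gene positions and promoters are from RefSeq tables of GRCm38.p6; the build of the probes was not used. Same-numbered Nf1-null and wild-type NSC arrays deviated together across the brighter 9097 genes (r = 0.643, 0.243 and 0.587), so the pairing comes from the data, not the labels. Same-numbered GSC arrays correlated at 0.236, 0.0523 and 0.198 with wild-type NSC, where other pairs reached 0.187, and at 0.299, 0.116 and 0.109 with Nf1-null NSC, where other pairs reached 0.106. Alternatives were other scalings, probe set summaries, filters, variance priors, array weights, arrays compared, the replicate block, each array left out, a pseudocount of 16 and a threshold of 0.1. Figures were drawn with matplotlib 3.10.9.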

Additional observations from a re-analysis of the deposited data

How the results depend on the processing

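Over 25 alternative settings, 678 of 741 results of the 10 genes kept their direction and side of the threshold. Of the others, 31 no longer passed, 20 came to pass and 12 changed sign. Most of the 741 had not passed in the main fit either. All 31 losses were among the 3 calls in GSC over wild-type NSC, with 14 for Nf1, 6 for Spred2 and 11 for Dab2ip, of 25 settings each. In GSC over wild-type NSC the 3 calls became 1 with only the 6 arrays compared. They became 1 with every probe set tested (beside 4.69% of all probe sets), where only the brightest probe set of each gene was counted. Over all 30 probe sets that fit called 3, of which 2 were of Spred2 and 1 of Dab2ip. The 3 calls became 5 of 8 with the brighter genes alone (beside 27.2% of those genes). They became 5 of 10 with a mean-variance trend (beside 14.7% of all genes). With the replicate number as a block they became 0 in the 6 arrays, 1 in the 9 arrays and 5 with the trend as well. Leaving out 1 array gave 0 to 3 calls, and 0 without any 1 wild-type NSC array, GSC array 2 or GSC array 3. In Nf1-null over wild-type NSC the 0 calls became 2 of 8 in the brighter genes (Nf1 and Spred2), beside 4.38% of those genes. They became 1 with a trend (Spred2), beside 1.81% of all genes. They became 1 with a robust trend (Spred2), and 2 with the block and trend (Spred1 and Spred2). Between GSC and Nf1-null NSC they became 1 with the block and trend (Rasa3), and the block alone changed no call in either of these comparisons.

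With the mean of all probe sets Sos1 turned to 0.24 (GSC over Nf1-null NSC) and 0.12 (GSC over wild-type NSC). Without wild-type NSC array 3, Rasa1 was -0.0019 in GSC over wild-type NSC. The other 9 sign changes were between GSC and Nf1-null NSC, with no call on either side. They were Nf1 (-0.050), Spred2 (-0.061) and Spred3 (-0.075) without Nf1-null NSC array 1, Spred3 (-0.044) and Sos1 (0.0020) without array 3, Sos2 (0.0066) without GSC array 1, Spred1 (-0.0044) and Spred2 (-0.049) without GSC array 2, and Spred3 (-0.023) without GSC array 3. Over the 9 arrays left out, these differences reached 0.24 for Nf1, 0.31 for Spred1, 0.17 for Spred2 and 0.21 for Spred3, and -0.12 for Sos1 and -0.11 for Sos2. That of Rasa1 in GSC over wild-type NSC reached 0.17. The cause was not tested. Calls over all genes moved more: 1649 in GSC over wild-type NSC became 0 with the 6-array block, 214 without wild-type NSC array 2 and 3515 with array weights. The 319 between GSC and Nf1-null NSC became 0 with that block and 1133 with block and trend, and the 0 between the NSC groups became 398 in the brighter genes, 329 with a trend and 974 with block and trend. Other scalings moved the median of all genes by at most 0.08 and changed no sign among the 10 genes, but both ended the Nf1 call in GSC over wild-type NSC, and the same-median shift added Spred1 (adjusted p = 0.0479). Rasal1, near the floor, and the dim Nf1 and Sos1 probe sets are limited by signal.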
